A study of Bos taurus with 15 samples.

Results

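The genes described here encode Wnt ligands, their Frizzled receptors, the R-spondin agonists, the secreted inhibitors of the pathway and 5 intracellular components, measured in bovine subcutaneous adipose tissue around calving. They were chosen by name: every entry present in all 6 comparison tables whose symbol begins with WNT, FZD, SFRP, DKK or RSPO followed by a number, and the genes FRZB, WIF1, CTNNB1, AXIN1, AXIN2, TCF7L2 and LEF1. This rule gave 34 of 13896 genes, of which 12 encode ligands, 5 receptors, 3 agonists, 9 secreted inhibitors and 5 intracellular proteins. LRP5, LRP6, TCF7L1 and NOTUM, which the rule also names, were not analysed here.

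RNA-seq was performed on fat of the dewlap of primiparous Prim Holstein cows, with 15 libraries in 5 groups of 3. A group before calving was sampled 1 month before it and before the diets began. The LE groups received a low energy diet from 1 month before calving and were sampled at 1 and 16 weeks after calving, and the HE groups received a high energy diet over the same period and were sampled at the same times. The study selected cows by their energy balance at 1 week, the deficit being either severe (SNEB) or moderate (MNEB). It sequenced 3 cows of each kind with the more extreme values, so that the groups do not represent the whole herd. The labels name the groups by diet and do not say which kind of deficit each held. Differences described below as between the diets cannot be told apart from the selection of cows on energy balance. By the study's methods each animal was biopsied at all times, so libraries of different times may come from the same cows, but the files do not tie libraries to cows and the fits treated them as independent.

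Wnt ligands are secreted glycoproteins that bind Frizzled receptors together with LRP co-receptors. In the canonical branch, receptor binding keeps β-catenin (CTNNB1) from being degraded by a complex built on the scaffolds AXIN1 and AXIN2, and β-catenin then acts with TCF and LEF factors on target genes. SFRP, FRZB and WIF1 proteins bind the ligands outside the cell, DKK1 and DKK2 bind the co-receptors, and R-spondins keep Frizzled receptors at the surface. In adipose tissue, canonical Wnt activity is known to hold back the differentiation of preadipocytes into adipocytes.

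The values below are reads of each library divided by a size factor, the median ratio of the library's reads to the typical library, and are called normalized exon reads. They compare a gene between libraries and do not compare one gene with another, since they were not divided by gene length. The libraries of a group are listed from the deepest to the shallowest, and these positions are not the replicate numbers of the labels, since the files did not tie a library to a cow. A gene was called when limma's voom fit gave a Benjamini-Hochberg adjusted p below 0.01, over all genes tested, in the exon analysis and in the whole gene analysis with the same sign. Differences are log2 fold changes of exon reads with the standard error (SE), and n was 3 libraries in every group.

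The libraries of the HE groups stood apart from the other 9. They held 1948598 to 7225006 exon reads, against 7356659 to 13935710 in the others, and spike-in reads came to 12.1 to 106 per 1000 exon reads, against 0.805 to 6.77. Depth, spike-in share, the HE diet and the selection on energy balance therefore cannot be told apart. The preadipocyte and fibroblast markers were also lower in the HE libraries: the summed normalized exon reads of the 7 measured (PDGFRA, DPP4, CD34, PI16, DCN, THY1 and DLK1, the last at 0 in 3 groups) ran from 10100 to 23600 in HE libraries and from 36700 to 85800 in the others. The sum of 7 adipocyte markers ran from 9550 to 56300 in HE libraries and from 41900 to 87400 in the others, with none at 0 in any group. The sums of 4 mast cell markers (247 to 523 in HE libraries, 1140 to 4520 in the others) and of 3 lymphatic endothelium markers (316 to 699, against 1200 to 2460) were lower in every HE library, the latter through LYVE1 (103 to 242, against 829 to 1800), while PROX1 and PDPN overlapped. The sum of 5 skeletal muscle markers was higher in every HE library (1170 to 4030, against 71.9 to 342), almost all of it from TNNT3, a fast troponin, while ACTA1, MYH1, MYH2 and CKM were at or near 0 in most libraries and at most 94.6. In tissue samples like these, fewer cells of a type and less RNA per cell cannot be told apart.

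SFRP4, a secreted frizzled-related protein made by stromal cells, was the member called between cows before calving and HE cows at 1 week. Before calving its normalized exon reads were 12900, 11100 and 8440. In LE cows they were 3060, 4800 and 1780 at 1 week and 6770, 2660 and 9460 at 16 weeks. In HE cows they were 718, 416 and 1080 at 1 week and 713, 982 and 1170 at 16 weeks. The means were 10800 ± 2250 (SD, n = 3) before calving and 740 ± 335 in HE cows at 1 week. All 6 HE libraries were below all 9 others, and the group before calving was above every library but 1 from LE cows at 16 weeks.

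Between the group before calving and HE cows at 1 week, SFRP4 fell 15.7-fold (log2 difference 3.98, SE 0.33, adjusted p = 8.0e-05 for exons, and 3.81, SE 0.38, adjusted p = 0.00624 for the whole gene). The call did not survive the loss of most single libraries: the whole gene adjusted p was 0.0526, 0.0256 and 0.0254 without library 1, 2 or 3 before calving, and 0.0133 and 0.0142 without HE library 2 or 3. The log2 difference in these fits stayed between 3.62 and 4.22. In LE cows at 1 week SFRP4 was 3.58-fold lower than before calving and was not called (log2 difference 1.84, SE 0.35, adjusted p = 0.0392 for exons and 0.113 for the whole gene). Between the diets it was higher in LE cows by 2.14 (SE 0.41, adjusted p = 0.0136) at 1 week, which passed in neither analysis. At 16 weeks it was higher by 2.59 (SE 0.40, adjusted p = 0.00266), which passed in the exon analysis only (whole gene adjusted p = 0.0161). A voom fit of all 15 libraries called SFRP4 at 16 weeks (adjusted p = 8.7e-04 and 0.00783), beside 4.38% of all genes.

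Marker genes of stromal and other cells moved with SFRP4 in the comparisons with HE cows. Before calving against HE at 1 week, 5 of 6 preadipocyte and fibroblast markers tested were past 0.01 in the exon analysis. All 5 were higher before calving, and 15.4% of all genes were past it. THY1 was at 3.44, DCN at 2.84 and PDGFRA at 2.41 on the log2 scale. The mast cell markers CPA3, KIT and HDC were also past it, at 4.86, 3.17 and 4.54. FCER1A passed the minimum of reads only through the group before calving, and no fold is given. Also past it were the adipocyte markers LEP (3.84) and CIDEC (2.37), 2 of 7 tested, LYVE1 (3.02) and S100B (1.55), all higher before calving. The endothelial marker VWF and TNNT3 were past it and lower (-1.38 and -3.58). In the whole gene analysis (1.37% of all genes) THY1, DCN, PDGFRA, KIT, LEP, CIDEC and LYVE1 were past 0.01. DPP4, PI16, CPA3, HDC, S100B, VWF and TNNT3 were not (adjusted p = 0.014 to 0.228). Between the diets at 1 week 3 of 6 stromal markers were past it in the exon analysis (1.46% of all genes). So were CIDEC, LYVE1 and KIT, all higher in LE cows, and TNNT3, lower. No gene was past it in the whole gene analysis there. Between the group before calving and LE cows at 1 week, 0 of 6 stromal markers were past the exon threshold (0.528% of all genes). Their median was 0.49, from PI16 (2.03) and THY1 (1.39) to CD34 (-0.16) and DPP4 (-0.99). The macrophage marker CD163 was the 1 marker past it (-1.40, lower before calving), with a whole gene adjusted p of 0.028. Between the diets at 16 weeks 3 of 6 stromal markers, THY1, DCN and PDGFRA, were past it in the exon analysis (9.87% of all genes). They were higher in LE cows by 2.12, 2.20 and 2.02, while DPP4, CD34 and PI16 were not past it (adjusted p = 0.0453, 0.0166 and 0.0158). All 4 macrophage markers measured (median 2.86) and the mast cell markers CPA3 and KIT (4.25 and 2.55) were also higher in LE cows there, as were CIDEC (1.66) and LYVE1 (2.93), and TNNT3 was lower (-3.27). The part of these cell types in the SFRP4 results was not tested.

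**Figure D1:**
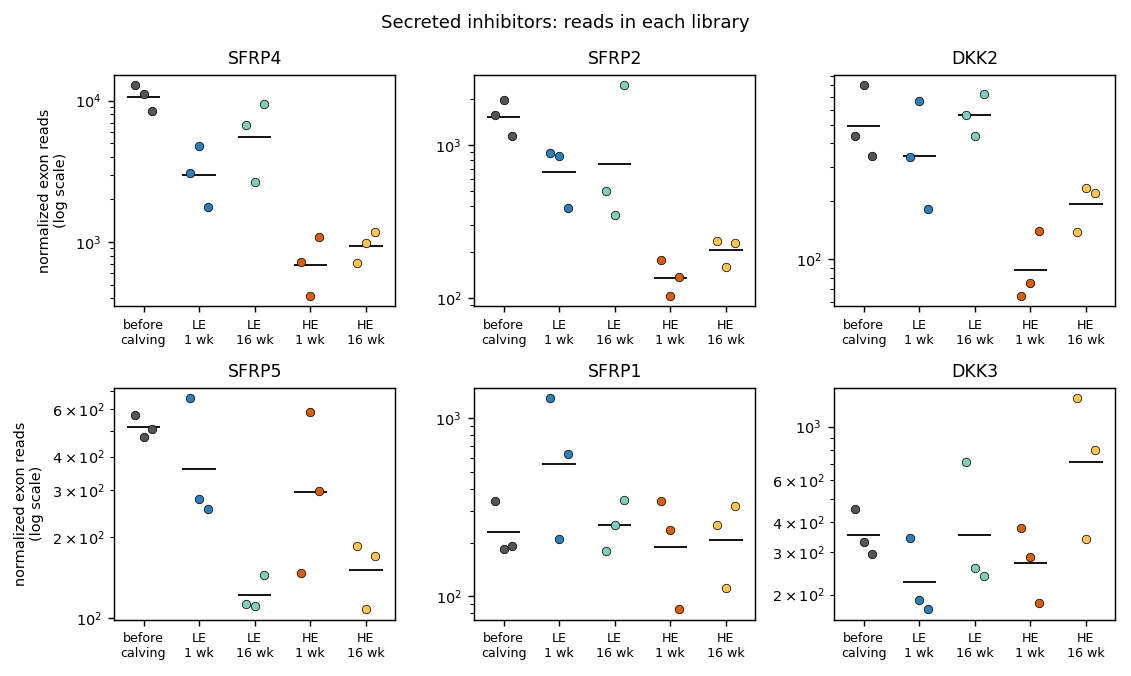
Normalized exon reads (log scale) of 6 secreted Wnt inhibitors in each of 15 libraries; each point is a library, placed from the deepest to the shallowest within its group, and each line is the geometric mean of 3 libraries. SFRP4, SFRP2 and DKK2 of the 6 HE libraries sit at or below 1170, 235 and 234, while the lowest of the other libraries are at 1780, 348 and 182.

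SFRP2, a related inhibitor of stromal cells, had much the same order of groups. Its normalized exon reads were 1580, 1960 and 1150 before calving, 893, 852 and 388 in LE cows at 1 week, and 500, 348 and 2470 in LE cows at 16 weeks. They were 176, 103 and 136 in HE cows at 1 week and 235, 159 and 230 at 16 weeks. No HE library reached the lowest of the others, and 1 LE library at 16 weeks was higher than the rest of its group.

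The SFRP2 difference between the group before calving and HE cows at 1 week was 10.6-fold (log2 3.40, SE 0.33, adjusted p = 1.6e-04) in the exon analysis, and the whole gene value of 3.16 missed the threshold (SE 0.49, adjusted p = 0.0138). Against LE cows at 1 week it was 1.19 (SE 0.34, adjusted p = 0.133). LE minus HE came to 2.21 (SE 0.43, adjusted p = 0.0138) at 1 week and to 1.85 (SE 0.73, adjusted p = 0.0993) at 16 weeks. SFRP2 was thus past the threshold in 1 of the 2 analyses of 1 comparison.

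DKK2, a Dickkopf protein that binds the LRP co-receptors, passed the exon analysis in 2 comparisons. It was at 438, 804 and 343 normalized exon reads before calving, at 339, 663 and 182 in LE cows at 1 week and at 564, 438 and 723 in LE cows at 16 weeks. HE cows had 64.6, 75.7 and 140 at 1 week and 138, 234 and 222 at 16 weeks. At each time after calving all LE libraries were above all HE libraries, although the lowest LE library at 1 week lay below the highest HE libraries at 16 weeks.

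Before calving DKK2 exceeded HE cows at 1 week by 2.64 (SE 0.45, adjusted p = 0.00213), and the whole gene value was 1.95 (adjusted p = 0.0197). A voom fit of all 15 libraries called DKK2 there (adjusted p = 0.00327 for exons and 0.0086 for the whole gene), beside 9.77% of all genes. In LE cows at 16 weeks it exceeded HE cows by 1.66 (SE 0.28, adjusted p = 0.00412), with 1.10 for the whole gene (adjusted p = 0.137). At 1 week the LE minus HE difference was 2.13 (SE 0.61, adjusted p = 0.0456). Most reads of DKK2 lay outside exons, the exons holding 19.0% of its 41594 whole gene reads, whereas exons held over 90% of the reads of SFRP4 in every library.

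The other inhibitors were past the threshold in no comparison. SFRP5, an adipocyte-derived inhibitor, was at 573, 473 and 507 normalized exon reads before calving, at 659, 278 and 255 in LE cows at 1 week and at 113, 111 and 145 in LE cows at 16 weeks. Its LE libraries at 1 week were all above those at 16 weeks (log2 difference 1.56, SE 0.40, adjusted p = 0.690). In HE cows SFRP5 ranged from 147 to 584 at 1 week and from 108 to 186 at 16 weeks, and these groups overlapped.

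DKK3, a divergent Dickkopf protein, was at 380, 286 and 184 in HE cows at 1 week and at 1310, 342 and 799 at 16 weeks, with overlap (log2 difference -1.33, SE 0.48, adjusted p = 0.320). SFRP1 reached 1290 and 632 in 2 LE libraries at 1 week and lay between 84.5 and 347 in the 13 others. FRZB varied from 2.57 to 143 and DKK1 from 0 to 23.1, with FRZB from 3.05 to 81.7 before calving and from 14.8 to 26.3 in LE cows at 16 weeks, and DKK1 at 37 exon reads or fewer in any library.

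WIF1, the Wnt inhibitory factor, stood out in 1 library in its exon reads. HE library 2 at 1 week had 484 normalized exon reads (179 reads), and the 14 other libraries had 0 to 7.35. The comparison of the group before calving with HE cows at 1 week gave a log2 difference of -2.48 (SE 1.62, adjusted p = 0.282). The same library also held the highest level of FRZB, at 143, and of the ligands WNT2B, at 97.3, and WNT16, at 18.9. SOX10, a transcription factor of Schwann cells, was at 521 in that library and at most 179 elsewhere, and its part in these values was not tested. Outside exons WIF1 was at 458 in library 2 and also at 441 in library 3 of HE cows at 1 week, against at most 165 elsewhere. The same 2 libraries held the highest reads outside exons of RSPO2 (1100 and 1050), WNT3 (144 and 170), WNT7A (164 and 163), WNT8A (19.8 and 32.5) and WNT10A (25.5 and 32.5). They are the 2 shallowest of all libraries in exon reads and have the highest spike-in shares. In whole gene reads, library 3 of HE cows at 16 weeks (4517231) was below library 2 at 1 week (4755307). The part of depth and spike-in share in these values was not tested. WIF1 was named after its values were seen.

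Among the ligands, WNT2 was past the threshold in 1 analysis and WNT5A had the next smallest adjusted p. WNT2, a canonical ligand, was at 131, 241 and 133 before calving, at 29.2, 123 and 34.0 in LE cows at 1 week and at 191, 83.2 and 139 in LE cows at 16 weeks. HE cows had 11.5, 37.8 and 73.5 at 1 week and 133, 82.2 and 225 at 16 weeks. In both diets the lowest levels were at 1 week, without overlap between the times in HE cows and with overlap in LE cows.

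The WNT2 difference between the group before calving and HE cows at 1 week was 2.82 (SE 0.63, adjusted p = 0.00781) in the exon analysis and 2.05 (adjusted p = 0.0916) in the whole gene analysis. Without HE library 1, the lowest, it was 1.68 (adjusted p = 0.0586). Against LE cows at 1 week the difference was 1.70 (SE 0.50, adjusted p = 0.151). From 1 to 16 weeks WNT2 was higher at 16 weeks by 2.57 in HE cows (SE 0.63, adjusted p = 0.234) and by 1.41 in LE cows (SE 0.54, adjusted p = 0.690), and neither was past the threshold. The diet by time contrast for WNT2 was 1.09 (SE 1.00, adjusted p = 0.99).

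WNT5A, the main ligand of the non-canonical branch, was tightly grouped before calving, at 165, 161 and 163. After calving its libraries ranged from 39.2 to 89.5 in LE cows and from 20.6 to 107 in HE cows, and so all 12 were below the 3 before calving. The difference from the group before calving was 1.52 in either diet at 1 week (SE 0.30 and adjusted p = 0.0432 in LE cows, SE 0.38 and adjusted p = 0.0129 in HE cows). The whole gene values were 1.57 in LE and 2.01 in HE cows (adjusted p = 0.130 and 0.0223). LE minus HE at 1 week was -0.01 (SE 0.50, adjusted p = 0.993).

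WNT11 and WNT2B were the other ligands with more than a few reads in most libraries. WNT11, a further non-canonical ligand, stayed between 118 and 285 in all 15 libraries and its 6 log2 differences ran from -0.10 to 0.49. WNT2B lay between 29.4 and 75.7 in the 9 libraries that were not HE. In HE libraries WNT2B was at 9.38, 97.3 and 7.35 at 1 week and at 24.4, 18.0 and 24.4 at 16 weeks, so that the library with WIF1 was again the exception.

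The remaining ligands were at the limit of detection. WNT5B and WNT6 had at most 11 and 41 exon reads in a library. WNT1, WNT3, WNT7A, WNT8A, WNT10A and WNT16 never reached the minimum mean of 5 exon reads per library for testing, and had 0, 5, 2, 5, 8 and 44 exon reads over all 15 libraries. The 0 exon reads of WNT1 among 129097647 allow a level of up to 3 reads in that total, which covers counting error only. Differences in the exon reads of these 6 ligands were not detectable at this depth. WNT3 and WNT7A had enough reads outside exons to be tested there, and their adjusted p was 0.51 or more in every comparison.

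**Figure D2:**
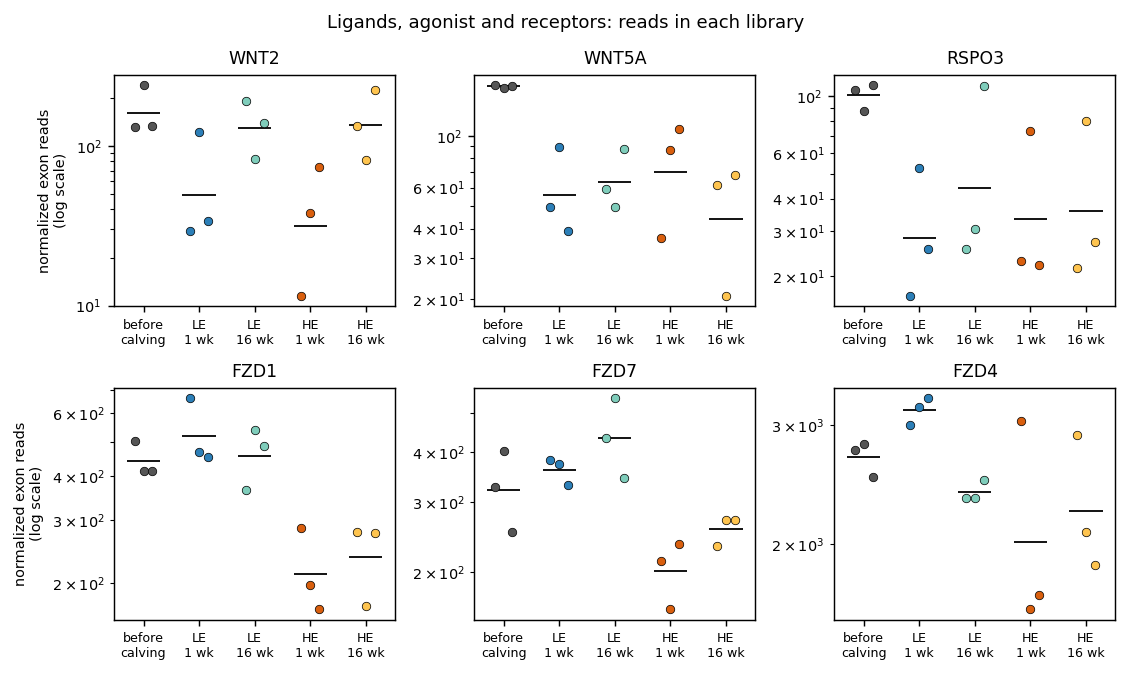
Normalized exon reads (log scale) of WNT2, WNT5A, RSPO3, FZD1, FZD7 and FZD4 in each of 15 libraries, ordered as in the plot of inhibitors; lines are geometric means of 3 libraries. WNT5A of the 3 libraries before calving lies at 161 to 165, above the 12 later libraries, and FZD1 of the HE libraries lies at 169 to 286, below the 9 others.

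RSPO3, an R-spondin of vessels and stroma, was the agonist with most reads. It was at 105, 87.4 and 110 before calving and at 16.8, 52.6 and 25.5 in LE cows at 1 week, without overlap (log2 difference 1.81, SE 0.39, adjusted p = 0.0632). HE cows at 1 week had 22.9, 73.0 and 22.1, also without overlap with the group before calving (1.68, SE 0.46, adjusted p = 0.0196, and 0.87, adjusted p = 0.368, for the whole gene). At 16 weeks RSPO3 lay between 21.5 and 109 over both diets. RSPO1 and RSPO2 had at most 25 and 16 exon reads in a library.

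No Frizzled receptor was past the threshold in any comparison in limma's voom fit of the groups compared; the fit of 15 libraries put FZD1 past it in the exon analysis alone between the diets at 1 week, and the quality weights called FZD1 there. FZD1, a receptor of canonical ligands, was at 503, 412 and 413 before calving, at 661, 467 and 453 in LE cows at 1 week and at 365, 537 and 486 in LE cows at 16 weeks. HE cows had 286, 197 and 169 at 1 week and 279, 172 and 276 at 16 weeks. FZD7 ran from 253 to 544 in the 9 libraries that were not HE and from 162 to 271 in HE libraries, with overlap only between the library 3 before calving and the HE libraries at 16 weeks.

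LE minus HE for FZD1 was 1.20 (SE 0.29, adjusted p = 0.0264) at 1 week and 0.90 (SE 0.24, adjusted p = 0.0285) at 16 weeks, and for FZD7 it was 0.85 (SE 0.24, adjusted p = 0.0423) and 0.78 (SE 0.22, adjusted p = 0.0340). The whole gene adjusted p of these 4 values lay between 0.139 and 0.167. All reads of FZD1, FZD7 and FZD10 were exonic, so that the analyses of these genes differ in their size factors and in the genes around them and not in their reads. FZD1 and FZD7 were named after their values were seen.

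FZD4, the receptor of the vessel ligand norrin, was at 3000, 3190 and 3290 in LE cows at 1 week and at 2340, 2340 and 2490 at 16 weeks, without overlap (log2 difference 0.38, SE 0.14, adjusted p = 0.690). In HE cows library 1 was the highest at both times, with 3050 and 2900, and the other libraries had 1600 to 2080. FZD3 lay between 32.5 and 88.8, and FZD10 had at most 52 exon reads.

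AXIN1, a scaffold of the complex that degrades β-catenin, was the member with the most regular difference between the diets. Its normalized exon reads were 395, 572 and 459 before calving, 539, 457 and 554 in LE cows at 1 week and 469, 454 and 437 in LE cows at 16 weeks. In HE cows they were 1180, 1490 and 2250 at 1 week and 898, 1310 and 1390 at 16 weeks. The means were 476 ± 89.7 (SD, n = 3) before calving and 1640 ± 549 in HE cows at 1 week. The 9 other libraries stayed between 395 and 572, and every HE library was above them.

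In the exon analysis AXIN1 was higher in HE cows at 1 week than before calving by 1.73 on the log2 scale, a 3.32-fold difference (SE 0.26, adjusted p = 0.00115). HE cows exceeded LE cows by 3.01-fold at 1 week (LE minus HE -1.59, SE 0.25, adjusted p = 0.00996) and by 2.58-fold at 16 weeks (-1.37, SE 0.19, adjusted p = 0.00164). In the whole gene analysis the same 3 differences were -1.21, -1.01 and -1.07 with adjusted p = 0.0221, 0.0682 and 0.0110, and so AXIN1 was called in none. It was called in all 3 by voom with library quality weights and by a fit of all 15 libraries, which called more of all genes than the pairwise fits (14.4%, 7.22% and 4.30% with the weights, and 9.77%, 2.85% and 4.38% in the fit of 15). Between the group before calving and LE cows at 1 week the difference was -0.13 (SE 0.18, adjusted p = 0.810).

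Reads outside the exons of AXIN1 did not separate the HE libraries from the others. They came to 419, 467 and 464 normalized reads before calving, 559, 418 and 614 in LE cows at 1 week, and 760, 325 and 412 in HE cows at 1 week, and the log2 difference between the group before calving and HE at 1 week was -0.29 (SE 0.31, adjusted p = 0.788). At 16 weeks they were 406, 521 and 433 in LE cows and 561, 634 and 479 in HE cows, with overlap (LE minus HE -0.60, SE 0.20, adjusted p = 0.153). Within the HE groups the spike-in reads were 13.0, 60.6 and 106 per 1000 exon reads at 1 week and 12.1, 36.1 and 29.9 at 16 weeks. The HE library with the lowest spike-in share was the lowest in AXIN1 at each time, and the library with the highest share was the highest at 1 week but not at 16 weeks. The part of the spike-in share in the AXIN1 result was not tested.

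**Figure D3:**
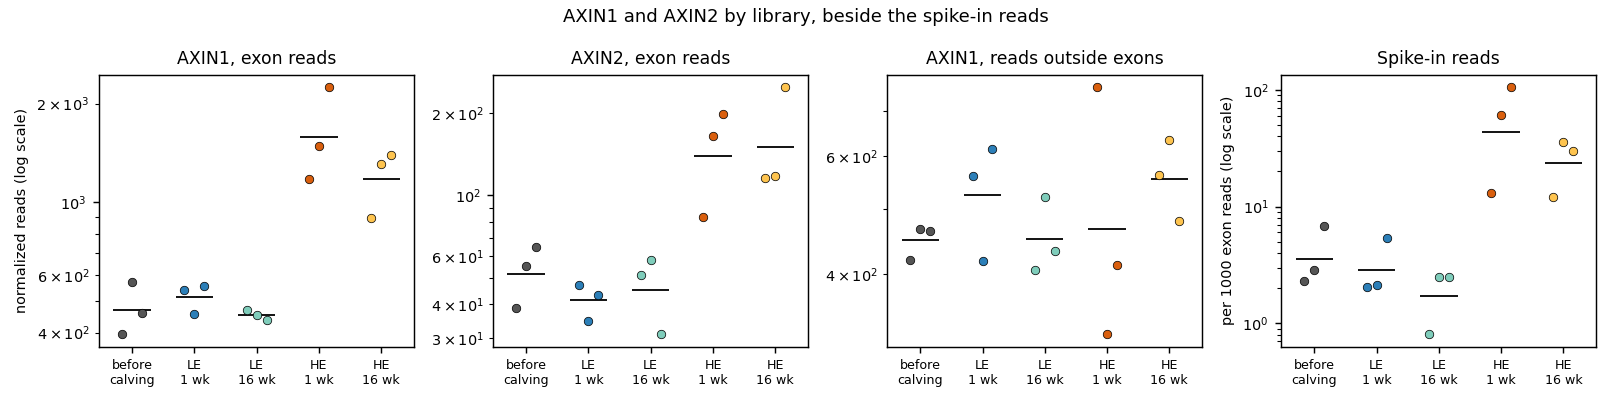
Normalized reads (log scale) of AXIN1 on exons, AXIN2 on exons and AXIN1 outside exons, and spike-in reads per 1000 exon reads (log scale), in each of 15 libraries; lines are geometric means of 3 libraries. Exon reads of AXIN1 are at 898 to 2250 in HE libraries and at 395 to 572 in the others, reads outside its exons are at 325 to 760 in HE libraries and 406 to 614 in the others, and spike-in reads are at 12.1 to 106 in HE libraries and 0.805 to 6.77 in the others.

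AXIN2, a scaffold that is itself a common target of β-catenin, was likewise higher in HE libraries. It had 83.4, 165 and 198 normalized exon reads in HE cows at 1 week and 116, 118 and 249 at 16 weeks, against 31.0 to 64.5 in the 9 other libraries. LE minus HE was -1.54 (SE 0.38, adjusted p = 0.0290) at 1 week and -1.62 (SE 0.36, adjusted p = 0.0123) at 16 weeks, both short of the threshold, with whole gene values of -0.88 and -1.33 (adjusted p = 0.267 and 0.0352). AXIN2 was called between the diets at 1 week when HE library 1 was left out. AXIN2 was named after its values were seen.

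TCF7L2, a nuclear partner of β-catenin, passed the exon analysis between the group before calving and HE cows at 1 week. It was at 260, 310 and 234 before calving and at 502, 638 and 573 in HE cows at 1 week (log2 difference -1.07, SE 0.22, adjusted p = 0.00495). LE cows at 1 week had 504, 349 and 375, also without overlap with the group before calving (-0.59, SE 0.20, adjusted p = 0.222). The whole gene analysis gave -0.01 for HE cows (SE 0.45, adjusted p = 0.995). Exons held 2.20% to 13.4% of the TCF7L2 reads of a library, and its normalized reads outside exons were 13700, 5530 and 3640 in HE cows at 1 week, a wider spread than the 5380 to 7450 before calving.

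CTNNB1, which encodes β-catenin, was at 6190, 5480 and 6210 before calving and at 3460 to 4620 in all 6 libraries at 1 week. The difference from the group before calving was 0.48 in LE cows (SE 0.16, adjusted p = 0.196) and 0.58 in HE cows (SE 0.20, adjusted p = 0.0551), and neither was past the threshold. LEF1, a further nuclear partner, ranged from 20.9 to 132 and its 6 log2 differences lay between -0.48 and 0.47.

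By comparison, the counts of members past the threshold were read against those of all genes tested. Between the group before calving and HE cows at 1 week, 1 of 27 members tested was called (1.46% of 10982 genes), namely SFRP4. In the exon analysis alone 6 of 27 were past 0.01 (15.4% of all genes), of which SFRP4, SFRP2, DKK2 and WNT2 were 4 higher before calving (6.72%) and AXIN1 and TCF7L2 were 2 lower (8.65%). The whole gene analysis alone passed 1 member, SFRP4 (1.37% of all genes), and 14 members had an unadjusted exon p below 0.05 (40.3%). The libraries did not overlap for 9 members higher before calving (22.2% of all genes) and 4 lower (22.9%). The median log2 difference was 0.46 over the members and 0.04 over all genes tested, with 19 members above 0 and 8 below.

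**Figure D4:**
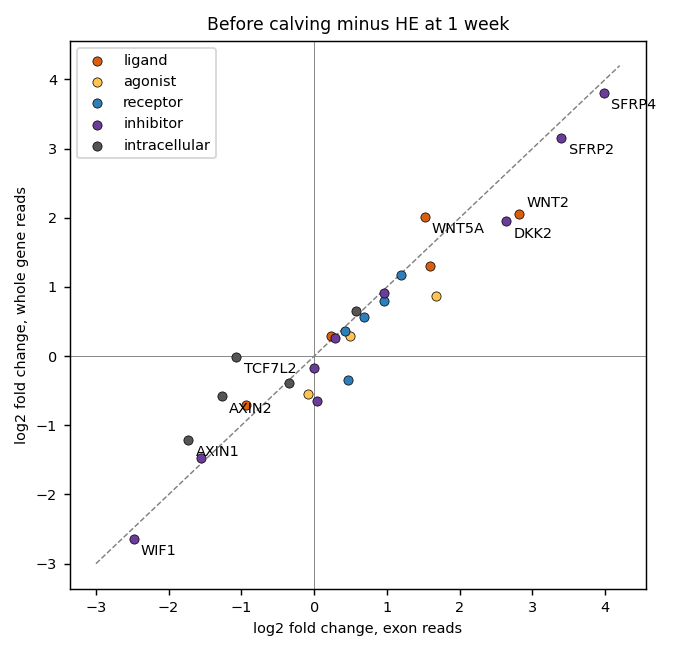
Log2 fold change of exon reads (horizontal) and whole gene reads (vertical) of the 27 members tested before calving against HE cows at 1 week; positive values are higher before calving, colours mark the role and the dashed line marks equal values. The 24 members with the same sign in both analyses include SFRP4 at 3.98 and 3.81, while TCF7L2 lies at -1.07 and -0.01.

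Between the group before calving and LE cows at 1 week no member of 28 was called by limma's voom fit (0.0363% of 11014 genes were), and none was past the threshold in the exon analysis (0.528% of all genes, 0.447% higher and 0.0805% lower before calving) or in the whole gene analysis (0.0334%). An unadjusted exon p below 0.05 was found for 7 members (14.4% of all genes). Limma-trend called 0 members, beside 0.209% of all genes at a pseudocount of 1 and 0.0817% at 5. Voom with library quality weights called 3 (SFRP4, WNT5A and RSPO3) beside 2.73% of all genes. The 3 members with the smallest adjusted p were SFRP4, WNT5A and RSPO3, all higher before calving. The libraries did not overlap for 6 members higher before calving (10.7% of all genes) and 2 lower (9.03%). The median was 0.13 over the members and -0.02 over all genes.

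The changes from 1 to 16 weeks gave no call. In HE cows 0 of 24 members and 0% of 10465 genes were called, with 3 members, WNT2, DKK2 and DKK3, at an unadjusted exon p below 0.05 (12.9% of all genes). These 3 had the smallest adjusted p, from 0.234 to 0.320, and were higher at 16 weeks. In LE cows 0 of 27 members and 0% of 10931 genes were called, and SFRP5, FZD4 and WNT2 were the 3 members below 0.05 (7.11% of all genes). Limma-trend and the quality weights also called 0 members in either diet. The HE libraries of the 2 times did not overlap for 2 members higher at 1 week (9.99% of all genes) and 2 lower (9.74%), and the LE libraries for 4 higher (7.92%) and 0 lower (4.11%). The medians over the members were -0.14 in HE and 0.06 in LE cows, beside 0.00 and -0.01 over all genes.

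Between the diets at 1 week 0 of 26 members and 0% of 10838 genes were called, 8 members had an unadjusted exon p below 0.05 (31.4% of all genes), limma-trend called 0 and the quality weights called 5 (AXIN1, AXIN2, FZD1, SFRP2 and SFRP4) beside 7.22% of all genes. The 3 members with the smallest adjusted p were AXIN1, SFRP4 and SFRP2. In the exon analysis 1 member was past the threshold, AXIN1, beside 1.46% of all genes (0.919% lower in LE cows, as AXIN1 was). At 16 weeks 0 of 25 members were called (3.49% of 10733 genes were, 1.01% higher in LE cows), 9 had an unadjusted exon p below 0.05 (36.8%), and limma-trend (4.24% of all genes at a pseudocount of 1) and the quality weights (4.30%) each called AXIN1 alone. The 3 members with the smallest adjusted p were AXIN1, SFRP4 and DKK2. In the exon analysis 3 members, AXIN1, SFRP4 and DKK2, were past the threshold at 16 weeks (9.87% of all genes), 2 of them higher in LE cows (3.24%) and AXIN1 lower (6.63%).

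Without overlap between the diets, 6 members were higher and 2 lower in LE cows at 1 week (18.5% and 20% of all genes), and 8 were higher and 3 lower at 16 weeks (21.5% and 21.3%). The median LE minus HE over the members was 0.14 at 1 week and 0.20 at 16 weeks, beside 0.05 and 0.03 over all genes. The diet by time contrast, which asks whether the change from 1 to 16 weeks differed between the diets, called 0 of 27 members and 0% of 10807 genes, and no member had an unadjusted exon p below 0.05 (4.91% of all genes did); limma-trend and the quality weights called 0. The smallest p in it belonged to FZD4 (0.56, SE 0.35), TCF7L2 (-0.42, SE 0.29) and CTNNB1 (0.30, SE 0.24). Each group before or after calving enters 2 or more of the 6 comparisons, which are therefore not independent of each other.

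**Figure D5:**
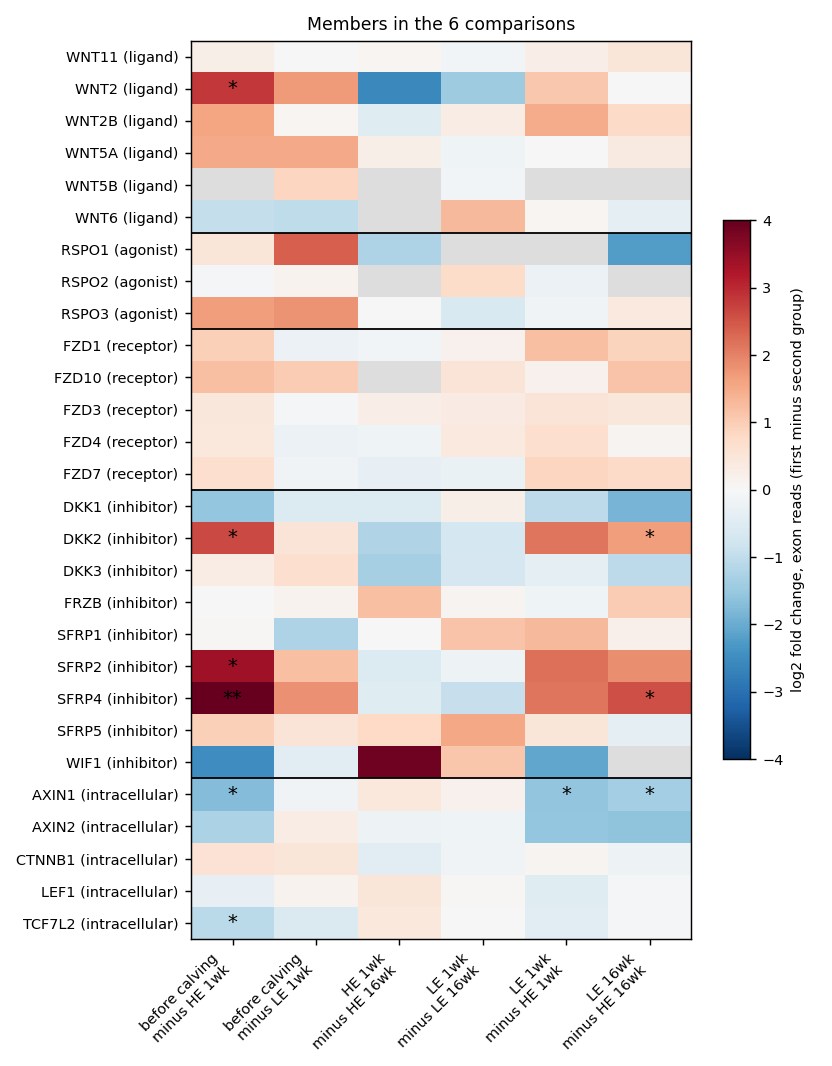
Log2 fold change of exon reads of each member with a value (rows, by role) in the 6 comparisons (columns, first group minus second); grey marks a gene under the minimum of reads, 1 asterisk an adjusted p below 0.01 in the exon analysis and 2 asterisks a call in both analyses. SFRP4 before calving minus HE at 1 week, at 3.98, is the cell with 2 asterisks, and AXIN1 is negative in the 3 columns where it is marked.

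Of the other genes of the pathway, a list of 43 present in the tables was followed in the same fits. Before calving against HE at 1 week, 0 of 43 were called (1.46% of all genes were) and 7 were past 0.01 in the exon analysis (15.4%). Of the 43, 18 had an unadjusted exon p below 0.05 (40.3%). These shares were near those of all genes. The 7 include SOST, which passed the minimum of reads only through the group before calving. WLS, which carries Wnt ligands to the cell surface, was higher before calving by 1.22 (adjusted p = 0.00345). So were the glypican GPC3 by 1.25 (whole gene value -0.07, adjusted p = 0.935) and IGFBP4 by 1.51. The cytoplasmic transducer DVL1, the kinase CSNK1E and the β-catenin co-activator BCL9L were lower, by -1.40, -1.52 and -1.33. Their median over 43 genes was -0.01, close to the 0.04 of all genes.

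SOST, which encodes sclerostin, had few reads after calving. It was at 76.5, 59.9 and 52.3 normalized exon reads before calving and at 1.22 to 11.0 in the 12 later libraries. With 6, 4 and 3 exon reads in LE cows and 5, 1 and 3 in HE cows at 1 week, it passed the minimum of reads in these comparisons only through the group before calving (133, 98 and 56 reads), and no fold is given. For that reason its tests are not read as a result. Against LE cows 0 of 43 genes of the list were called (0.0363% of all genes), and none but SOST was past the exon threshold (0.528%). In that comparison 15 had an unadjusted exon p below 0.05 (14.4% of all genes). The keratinocyte and hair follicle markers were also high before calving, with summed normalized exon reads of 192 to 663 against 3.06 to 14.5 in LE cows. In HE cows at 1 week they were at 7.3, 116 and 382, overlapping the group before calving, while SOST was at 2.70 to 11.0 there. Their part in the SOST values was not tested.

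At 16 weeks 2 of 40 pathway genes were called between the diets (3.49% of all genes), both lower in LE cows. NKD1, an inhibitor that binds DVL proteins and is a common β-catenin target, had 15.1, 15.9 and 23.2 normalized exon reads in LE cows and 178, 157 and 168 in HE cows (log2 difference -3.26, SE 0.29, adjusted p = 4.9e-04 for exons and 0.00368 for the whole gene). DVL1 had 457, 400 and 410 in LE cows and 1110, 1000 and 1440 in HE cows (-1.46, SE 0.18, adjusted p = 9.7e-04 and 0.00431). In the exon analysis at 16 weeks 1 pathway gene was past the threshold and higher in LE cows (3.24% of all genes), and 3 were lower (6.63%). There 14 had an unadjusted exon p below 0.05 (36.8%). GPC3 was higher in LE cows at both times in the exon analysis, by 1.97 at 1 week and 1.54 at 16 weeks. Its whole gene values of 0.53 and 0.77 were not past the threshold. BCL9L was lower in LE cows, by -1.47 at 1 week and -1.16 at 16 weeks. Its whole gene values of -1.27 and -1.2 were also not past it. At 1 week 0 of 41 pathway genes were called between the diets, with GPC3 and BCL9L past the exon threshold (1.46% of all genes) and 13 at an unadjusted exon p below 0.05 (31.4%).

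In the other groups NKD1 was at 101, 64.1 and 66.3 before calving, at 36.2, 34.7 and 11.1 in LE cows at 1 week and at 92.8, 94.6 and 140 in HE cows at 1 week. At each time after calving the diets did not overlap, and NKD1 was past the threshold in no comparison but that of the diets at 16 weeks.

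A list of 15 common Wnt target genes, of which NKD1 is also in the pathway list, had no common direction. Before calving against HE at 1 week 0 were called (1.46% of all genes) and 9 had an unadjusted exon p below 0.05 (40.3%). In the exon analysis 4 were past the threshold (15.4% of all genes). WISP2, a matricellular protein of stromal cells, was higher before calving by 2.99 and the adhesion receptor CD44 by 1.23, while PPARD and VEGFA were lower by -1.56 and -1.79. Between the diets at 16 weeks NKD1 was the 1 called gene (3.49% of all genes), and 4 were past the exon threshold (9.87%). Beside NKD1, CCND1, a cyclin, was lower in LE than HE cows by -2.23 and PPARD by -1.35, and ID2 was higher by 0.81. The other comparisons called 0 targets, with 0 to 6 at an unadjusted exon p below 0.05 in each, where the share of all genes ran from 4.91% to 31.4%.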

How the data were processed

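Total RNA of 3 cows per group was depleted of ribosomal RNA and made into stranded libraries, which were sequenced as single reads. Per the labels and the methods of the study, the authors demultiplexed with bcl2fastq 2.15.0, trimmed with cutadapt 1.3, mapped to bosTau8 with TopHat2, assigned reads with htseq-count to exons or to whole genes, and ran DESeq2 on 6 pairs of groups. The deposited tables hold, for each pair and each of these 2 analyses, the mean normalized count over 6 libraries, a unit of its own that is not a count per library, and the authors' fold changes, standard errors and p-values, which were not used. No column belonged to a sample of another series.

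The means are written with 15 digits, and each is a sum of whole reads divided by size factors. The size of 1 read of each library was found from genes with a single read, and the whole reads of every library were solved from the tables that share libraries. This gave whole reads for 13966 of 13988 exon entries and 13963 of 13988 whole gene entries (largest relative residual 5.04e-15 and 5.08e-15), and size factors recomputed from them differed by at most 0.000529 and 0.000988. COL1A1 was among the entries not recovered, and all members were recovered. The tables in which a library appears give its group but not which sample of the labels it is, so libraries were numbered by depth. The lowest chi-square per degree of freedom between libraries of a group was 13.0, so none was a repeat of another.

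Recovered reads were tested with limma 3.58.1 (voom, two-sided) in R 4.3.3, with median-ratio size factors, on genes with a mean of at least 5 reads per library in the fit, a minimum chosen with the files in hand. The 92 spike-in entries were left out, and the spike-in share rests on the 81 of them that were recovered. limma was used because the tables were read as means and not as counts, and no count model was run. Reads outside exons are whole gene minus exon reads. The p-values rest on the spread of libraries within groups, pooled over the groups of a fit and drawn towards that of all genes. Since libraries may share cows, it may not be a spread between independent animals. The recovery and the fits were tested on simulated data. Values of every library are given for members called or past 1 analysis, the 3 members with the smallest adjusted p are named where a comparison had no call, and of the other lists the called genes are named. List genes past the exon analysis alone were named after their values were seen. The members and lists were chosen with earlier results of these data known. Alternatives changed the reads, threshold, scaling, filter, model, weights and libraries.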

Additional observations from a re-analysis of the deposited data

Results flagged for a closer look

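Spike-in reads, which enter no comparison of genes, were higher in every HE library than before calving. The lowest HE library had 12.1 spike-in reads per 1000 exon reads, and the highest library before calving had 6.77. The members whose HE libraries all lay above or below the 9 others, SFRP4, SFRP2, AXIN1, AXIN2 and FZD1, separated the same libraries. The share of all genes that did so was not computed. In the comparisons of HE cows with another group, 18.5% to 22.9% of all genes did not overlap in each direction. The number of such members is therefore not read as a result about them. The part of the spike-in share in them was not tested. Groups of 3 libraries are too small for a search for single outlying libraries.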

How the results depend on the processing

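Over 7 counts of called members, 100 alternative values stayed on the same side, 6 lost and 18 gained calls, and none reversed; over 10 log2 differences of single members, 135 stayed, 6 lost and 29 gained the threshold, and none reversed. Between the group before calving and HE cows at 1 week, the count of 1 of 27 (1.46% of all genes) became 6 with exon reads alone (15.4%), 0 with reads outside exons (0%), 5 at an adjusted p below 0.05 (9.38%), 2 with limma-trend at either pseudocount, 1 or 5 (2.04% and 2.02%), 5 with library quality weights (14.4%) and 3 in the fit of 15 libraries (9.77%), and ranged from 0 to 1 with a library left out. Against LE cows at 1 week, 0 became 3 with quality weights (2.73%). Between the diets at 1 week, 0 became 1 with exon reads alone (1.48%), 5 with quality weights (7.22%) and 1 in the fit of 15 libraries (2.85%), and ranged from 0 to 1 with a library left out (AXIN2, without HE library 1). At 16 weeks, 0 became 3 with exon reads alone (9.89%), 3 at an adjusted p below 0.05 (12.2%), 1 with limma-trend at either pseudocount (4.24% and 4.14%), 1 with quality weights (4.30%) and 2 in the fit of 15 libraries (4.38%), and ranged from 0 to 1 with a library left out (SFRP4, without LE library 2). The cause was not tested, except that a looser threshold or a single analysis calls more by construction. The changes from 1 to 16 weeks and the diet by time contrast gave 0 under every alternative run. TMM scaling moved the median of all genes by at most 0.05 on the log2 scale. No paired analysis was possible because the recovered libraries carry none of the replicate numbers of the labels. HE libraries, at 1948598 to 7225006 exon reads, limit what can be seen of the members with few reads.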
